A study of Papio with 24 samples.

Results

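Cytoplasmic ribosomal protein genes were described in cultured adipose-derived stem cells of 8 fetal baboons (Papio). The genes were taken by symbol from the array annotation: RPL or RPS with a number and an optional A, L or X suffix, together with RPLP1 and RPLP2. Ribosomal S6 kinases, pseudogenes and the Y-linked RPS4Y1 were left out, and each gene was read from 1 probe, its brightest on average over the 24 arrays. This gave 72 genes of the 18852 genes with a probe of their own, 46 of the large and 26 of the small ribosomal subunit. A gene was tested if its detection p-value was under 0.05 on at least 4 arrays. That left 64 members of 10228 tested genes, 40 large-subunit and 24 small-subunit genes. RPLP0 and RPSA, the acidic stalk base and the laminin-receptor-like protein of the small subunit, were not analysed here.

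Each array read 1 depot of 1 fetus. The depots were the omentum inside the abdominal cavity and the fat under the skin of the abdomen and of the femoral region. Mothers of 4 fetuses (control_9017, control_9087, control_8011 and control_8009) had eaten ad libitum, and mothers of the other 4 (restricted_9085, restricted_2820, restricted_9075 and restricted_9073) had been held on a diet restricted by 30% for the whole of pregnancy. All fetuses were taken on day 165 of a gestation whose term was day 184, and each diet group held 1 male (control_9017 and restricted_9085) and 3 females. In every group the cells had been released with collagenase, grown to confluence in αMEM with 10% fetal bovine serum, frozen, thawed and regrown, and RNA of 3 wells was pooled for each array. The values therefore belong to passaged cells under 1 medium, not to fat tissue, and the mother's diet was no longer acting when RNA was taken. Fewer cells of a type and less RNA per cell cannot be told apart in such pooled RNA.

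The cytoplasmic ribosome joins a small subunit, which reads the mRNA, to a large subunit, which forms the peptide bond. The ribosomal protein mRNAs begin with a terminal oligopyrimidine tract, through which mTOR signalling controls how strongly they are translated, and they are among the most abundant mRNAs of growing cells. Because the subunits need their proteins in equal number, the genes are usually described as a set with little change in mRNA level. A few have roles outside the ribosome: RPL5 and RPL11 bind MDM2 when ribosome assembly fails, and RPS6 is the substrate of the S6 kinases.

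Arrays detected 13102 to 14994 of 48803 probes, and the mean deposited intensity per array ran from 148 to 211. Of the stromal progenitor markers, 9 of 11 were detected on all 24 arrays, among them PDGFRA, PDGFRB, CD44, COL1A1, COL1A2 and DCN, while THY1 was detected on none and ENG on 7. The blood markers PTPRC, CSF1R, AIF1, CD3E and HBB, the fat-cell genes PLIN1 and LPL, the endothelial CDH5 and the muscle factor MYOD1 were detected on no array. Other genes of these lists were detected. At least 4 arrays detected 3 of 8 blood, 3 of 6 fat-cell, 6 of 8 endothelial and 4 of 5 muscle markers. CD14, CD68, LEP and DES were detected on all 24 arrays, TEK on 22 and LYZ on 21. The human probes were not designed on baboon sequence, so a probe at background is a statement about the probe and not about the transcript, and levels of different genes were not set against each other. Precision is limited by how many arrays there were.

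Among the 64 tested members, 62 were detected on all 24 arrays. The other 2 were RPS2, a small-subunit protein, on 23 arrays and RPL10L, an intronless copy of RPL10 best known from testis, on 22. RPL10L was missed on 1 control array of the abdominal and 1 of the femoral depot, and RPS2 on 1 restricted abdominal array. The 8 members that were not tested were RPL10, RPL23A, RPL28, RPL34, RPS7 and the muscle paralog RPL3L, each detected on 0 arrays, RPL37 on 2 and RPS23 on 3.

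Member values stayed within narrow limits. Most members were bright, with a median brightness percentile of 98.9 among tested probes, and the highest value on the arrays was 14.90. The part of this brightness in the narrow spread was not tested. The standard deviation over the 24 arrays, on the log2 scale, had a median of 0.15 over members and 0.18 over all 16933 tested probes, with members between 0.046 and 0.64. Among probes with a mean over 13 it had a median of 0.098 over 33 members and 0.12 over 215 probes. The narrowest were RPS12, a small-subunit beak protein, with a range of 14.62 to 14.78, RPL10A with 14.23 to 14.45 and RPS19, the gene most often mutated in Diamond-Blackfan anemia, with a standard deviation of 0.071. The widest were RPL32 with 10.74 to 12.66, RPL39L with 6.44 to 8.57, RPS18 with 12.44 to 13.88, RPL10L with 4.66 to 6.05 and RPL21 with 8.88 to 10.14. RPL39L and RPL10L are paralogs with known tissue-restricted use.

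**Figure D1:**
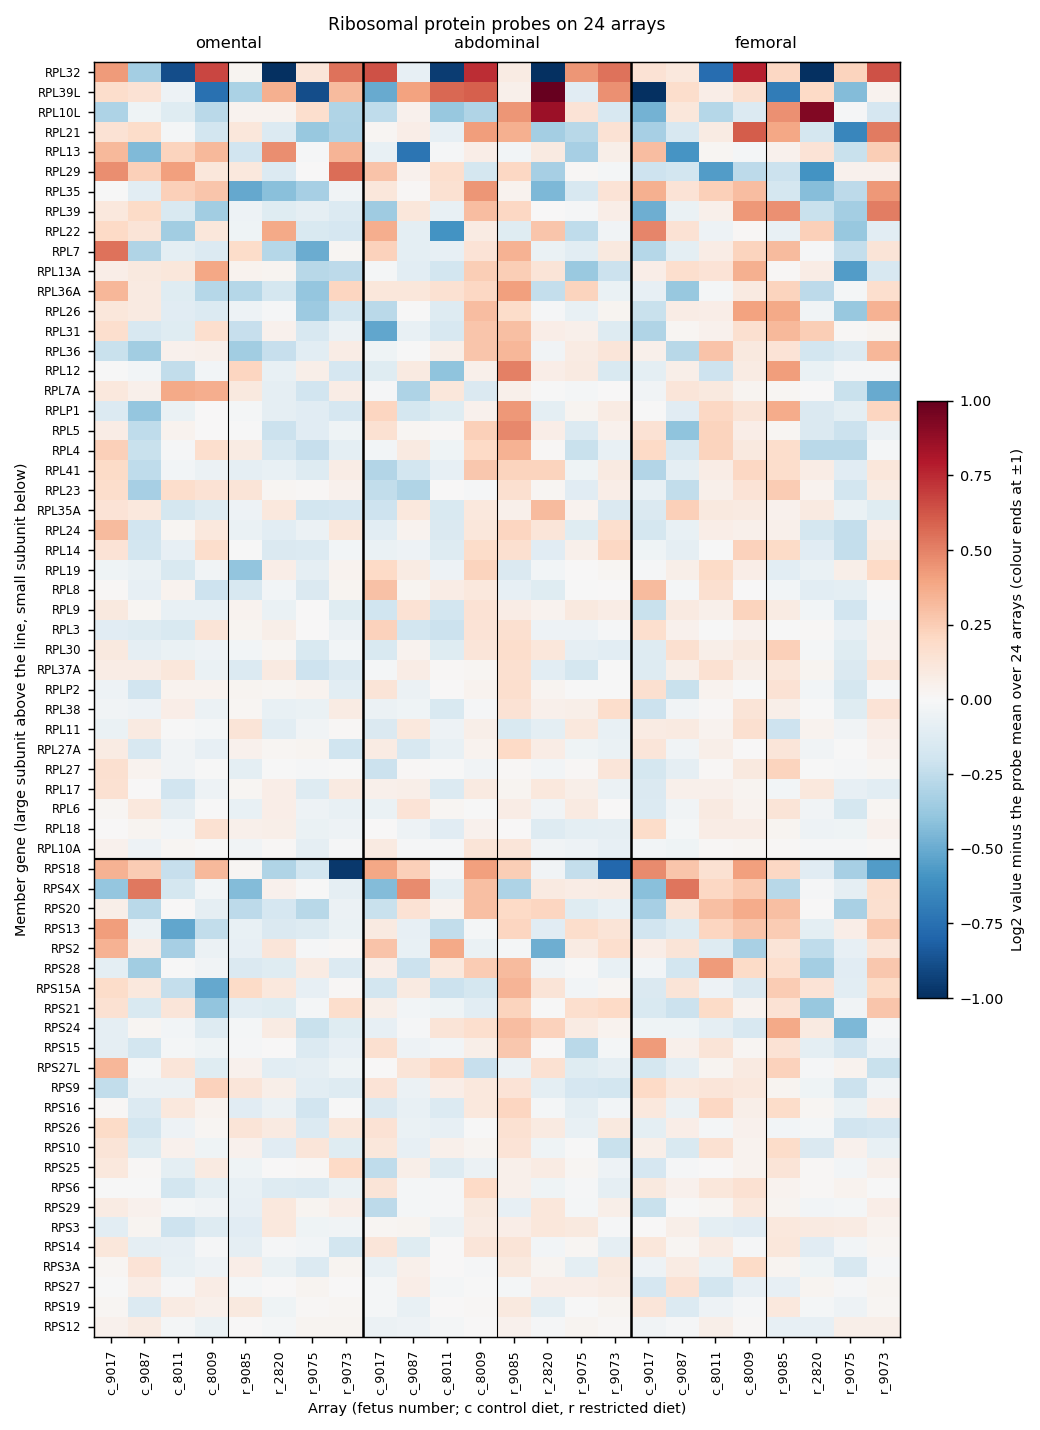
Log2 value of each of the 64 tested ribosomal protein genes (rows) on each of the 24 arrays (columns) minus the mean of that probe over the 24 arrays, with large-subunit genes above the line, and colour ending at 1 in either direction. RPL32, RPL39L and RPL10L show the strongest colours, RPS18 stands out among the small-subunit genes, and most other rows are pale throughout.

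The whole set moved little between arrays. The median over members of the deviation from each probe's own mean lay between -0.10 and 0.155 on the 24 arrays. It was highest on the abdominal array (0.155) and the femoral array (0.12) of restricted_9085, where 54 and 51 of 64 members stood above their mean. It was lowest on the femoral (-0.10) and omental (-0.091) arrays of restricted_9075, where 10 and 16 members stood above their mean. Group means of these array medians ran from -0.042 ± 0.034 (SD, n = 4) in restricted omental cells to 0.038 ± 0.078 in restricted abdominal cells. The restricted omental arrays (-0.091 to -0.016) all lay below the restricted abdominal arrays (-0.0085 to 0.155), and every other pair of groups overlapped. By depot, 7 of 8 omental arrays lay below 0, against 4 of 8 abdominal and 4 of 8 femoral arrays.

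**Figure D2:**
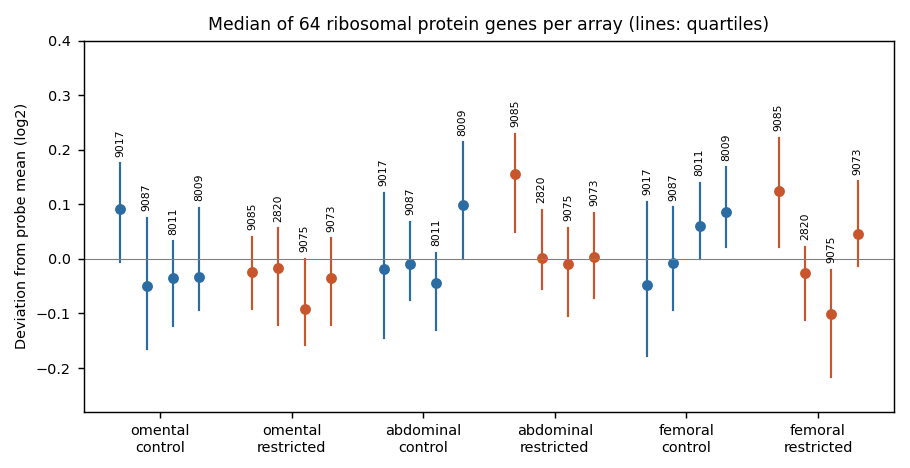
Median deviation of the 64 members from their own probe means on each array (points, labelled by fetus number, blue for control and orange for restricted), with lines from the lower to the upper quartile over members. The abdominal and femoral arrays of restricted_9085 sit highest and the femoral array of restricted_9075 lowest, and the restricted omental arrays lie below the restricted abdominal arrays while the other pairs of groups overlap.

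The series asks whether restriction of the mother's diet left a mark on fetal fat progenitors that depends on the depot. For ribosomal protein mRNA no such difference was resolved. No member passed in omental, abdominal or femoral cells or on the averages over the 3 depots of each fetus (limma, Benjamini-Hochberg adjusted p under 0.05 over 16933 probes). The background was as empty, with 0% of probes called in each depot and 0.00591% on the averages, a single probe. At an unadjusted p under 0.05 there were 3 omental members (4.69%, against 4.75% of probes), all lower in restricted cells, a direction that 2.59% of probes took. There were 2 abdominal members (3.13%, against 4.87%), both higher (against 2.06%), and 3 femoral members (4.69%, against 6.2%), all lower (against 3.45%). On the averages 3 members (4.69%, against 6.21%) were 1 higher (against 2.62%) and 2 lower (against 3.59%). In either direction together, these shares were below the background.

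The median difference of the members, restricted minus control, was -0.025 in omental, 0.035 in abdominal and -0.014 in femoral cells and -0.013 on the averages, while the median over all probes was -0.0074, -0.0066, -0.0028 and -0.0047. Members above 0 numbered 22, 41, 25 and 28 of 64, and 47.7%, 48%, 49.2% and 48.1% of all probes were above 0. These medians depended on the scaling. With arrays scaled to a common median in place of quantiles they were -0.16 in omental, -0.024 in abdominal and -0.034 in femoral cells and -0.080 on the averages, with 2, 26, 24 and 11 of 64 members above 0. All probes then had medians of -0.069, -0.053, -0.020 and -0.043. Relative to all probes the members lay at -0.093, 0.029, -0.013 and -0.037, and no member passed. The precision allows a bound for most members: on the averages, the 95% interval lay within 0.5 log2 units of 0 (1.41-fold) for 56 of 64. The 8 others were RPL10L, RPL13, RPL13A, RPL32, RPL35, RPL39L, RPS18 and RPS4X.

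RPS18, a protein of the small-subunit head, was among the 3 members with the smallest p in each depot and on the averages. In omental cells its control values were 13.76, 13.66, 13.18 and 13.73 in control_9017, control_9087, control_8011 and control_8009, and its restricted values were 13.42, 13.11, 13.22 and 12.44 in restricted_9085, restricted_2820, restricted_9075 and restricted_9073. The groups overlapped through control_8011, and restricted_9073 was lowest. The difference was -0.53 ± 0.21 in omental cells (SE; limma adjusted p 0.981), -0.46 ± 0.21 in abdominal cells (0.955), -0.53 ± 0.16 in femoral cells (0.73) and -0.51 ± 0.19 on the averages (0.80). The depots share their fetuses, so these 4 values are not independent of each other. Restricted_9073 was the lowest fetus in all 3 depots, with 12.44, 12.62 and 12.85. Without it the RPS18 difference was -0.33 in omental, -0.27 in abdominal and -0.41 in femoral cells and -0.33 on the averages.

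RPL35, beside the exit of the nascent-chain tunnel, had omental values of 10.50, 10.40, 10.74 and 10.78 in the controls and 10.00, 10.09, 10.17 and 10.47 in the restricted fetuses, in the same order. Only restricted_9073 reached into the control range. The difference was -0.42 ± 0.13 in omental cells (limma adjusted p 0.981) and -0.36 ± 0.13 on the averages (0.80). RPL13A, a large-subunit protein that also takes part in the interferon-gamma translation silencing complex, had omental control values of 9.32, 9.35, 9.36 and 9.64 and restricted values of 9.28, 9.28, 8.97 and 8.99. All 4 restricted values lay below all 4 control values, and the difference was -0.29 ± 0.12 (adjusted p 0.981). Its femoral difference was -0.34 ± 0.14 (0.794) and -0.21 without restricted_9075, and its abdominal difference was -0.038 ± 0.16.

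RPL10L was the member that stood furthest above 0 in both subcutaneous depots and on the averages. Its abdominal values were 4.87, 5.17, 4.75 and 4.82 in controls and 5.56, 5.98, 5.26 and 4.96 in restricted fetuses. The groups overlapped, and restricted_2820 was highest. The difference was 0.54 ± 0.21 in abdominal cells (limma adjusted p 0.955), 0.49 ± 0.23 in femoral cells, 0.17 ± 0.12 in omental cells and 0.40 ± 0.17 on the averages (0.80). Without restricted_2820 it was 0.36 in abdominal cells and 0.27 on the averages. These values lie close to the detection limit, since RPL10L was missed on 2 control arrays. RPL38, which is known in mice for its part in translating Hox mRNAs, differed by 0.18 ± 0.08 in abdominal cells (0.955), with restricted values of 13.56 to 13.68 above control values of 13.35 to 13.49. A second tested RPL38 probe, near background, read 4.36 to 4.94 in control and 4.33 to 4.46 in restricted abdominal cells. RPS9, at the entry of the mRNA channel, differed by -0.20 ± 0.08 in femoral cells (0.794).

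Restricted and control values did not overlap for 1 member in omental cells (RPL13A, lower), for 2 in abdominal cells (RPL38, higher, and RPL8, lower) and for 2 in femoral cells (RPS6 and RPS9, both lower). This is 1.56% of members against 2.82% of all probes in omental cells, 3.13% against 3.14% in abdominal cells and 3.13% against 3.89% in femoral cells. On the averages it held for 0 members, against 3.59% of probes. No member appeared in more than 1 depot. For RPL38, RPL8, RPS6 and RPS9 a second tested probe gave overlapping diet groups in the same depot. The overlap was small for RPS9, with femoral control values from 13.815 and restricted values up to 13.83.

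**Figure D3:**
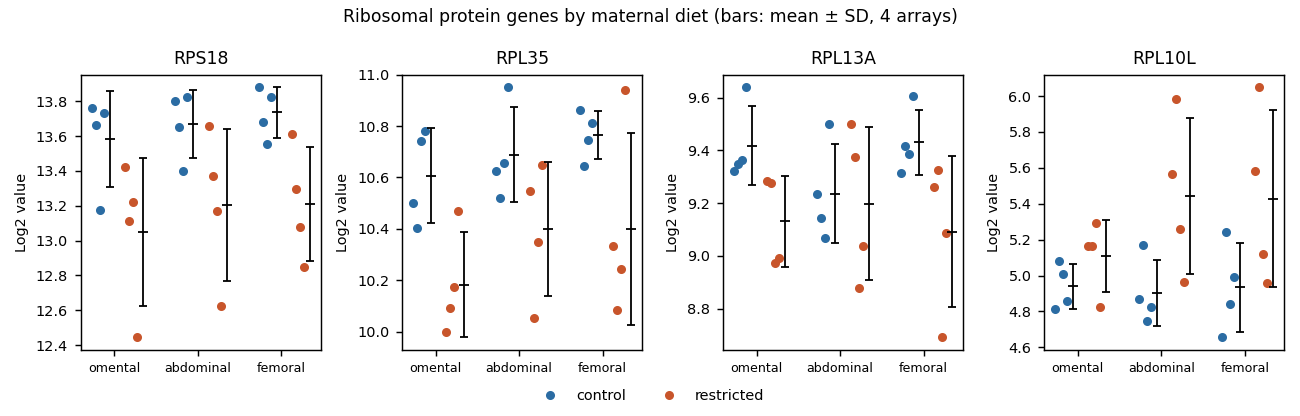
Log2 values of RPS18, RPL35, RPL13A and RPL10L on each array by depot, with control fetuses in blue, restricted fetuses in orange and black bars for the mean ± SD of 4 arrays. The RPS18 and RPL35 means are lower and the RPL10L means higher in restricted fetuses in every depot, and the omental RPL13A groups do not overlap, while none of the differences passed the adjusted test.

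Of the members of set role, 11 others had diet differences on the averages with 95% intervals that included 0. For RPL39L the interval was not within 0.5 log2 units of 0. RPL10L and RPL13A were described above, and RPS6 and RPS4X are described below by depot, fetus or sex. On the averages, the stalk proteins RPLP1 and RPLP2, which recruit the elongation factors, differed by 0.067 ± 0.099 and 0.016 ± 0.069. RPS3, which doubles as a DNA repair nuclease and an NF-kB partner, differed by 0.083 ± 0.055, and RPS19 by 0.024 ± 0.059. The MDM2 binders RPL5 and RPL11 differed by -0.053 ± 0.099 and -0.058 ± 0.055. Of the paralog pairs, RPS27 differed by 0.026 ± 0.056 and its p53-inducible copy RPS27L by -0.047 ± 0.067. RPL39 differed by 0.046 ± 0.11 and RPL39L by 0.0078 ± 0.25, and RPL3, which lines the peptidyl transferase center, by 0.0083 ± 0.069. The adjusted p-values of these 11 genes ran from 0.856 upward.

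The depot by diet interaction, the difference between 2 depots in the restricted-minus-control value, was called for 0 of 64 members in each of the 3 pairs of depots, against 0% of all probes (limma). At an unadjusted p under 0.05 there was 1 member for omental against abdominal cells (1.56%, against 1.95% of probes) and 0 for the other pairs (against 2.32% and 1.9%). That member was RPL7A, a large-subunit protein whose gene hosts small nucleolar RNAs, with -0.35 ± 0.15. The median over members was -0.073 for omental against abdominal cells, with 48 of 64 below 0 and 50% of all probes above 0, and the other medians were -0.019 for omental against femoral and 0.062 for abdominal against femoral cells. Intervals were wide, and between 39 and 44 of 64 members had a 95% interval within 0.5 of 0. These fits had no fetus block, so the intervals also hold differences between fetuses. With each fetus as a block, 0 members were called in each pair of depots. In female fetuses alone the omental against abdominal median was 0.0038 and the omental against femoral median 0.064. With median scaling these 2 medians were -0.15 and -0.12, or -0.14 and -0.063 relative to all probes.

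Depot was compared next, because fat depots differ in many genes and each fetus gave all 3. The main fit had diet as a term and did not pair the arrays of a fetus. Between omental and femoral cells 2 of 64 members passed (limma, adjusted p under 0.05), 1 higher (against 5.33% of probes) and 1 lower (against 5.6%), or 10.9% of all probes in either direction. RPL29, a large-subunit protein that also binds heparin, was higher in omental cells. RPS6, the S6 kinase substrate of the small subunit, was lower in omental cells. Between omental and abdominal cells 0 members passed, against 4.62% of probes, and between abdominal and femoral cells 0 passed, against 0.0768% (limma). At an unadjusted p under 0.05 there were 5 members between omental and abdominal cells (7.81%, against 17.2%), all lower (against 8.42%). There were 3 between omental and femoral cells (4.69%, against 22.1%) and 2 between abdominal and femoral cells (3.13%, against 4.18%), both higher (against 2.06%).

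RPL29 in control_9017, control_9087, control_8011 and control_8009 read 7.40, 7.17, 7.34 and 7.05 in omental, 7.22, 6.97, 7.10 and 6.75 in abdominal and 6.72, 6.74, 6.38 and 6.67 in femoral cells. In restricted_9085, restricted_2820, restricted_9075 and restricted_9073 it read 7.04, 6.79, 6.94 and 7.49 in omental, 7.14, 6.60, 6.94 and 6.92 in abdominal and 6.72, 6.34, 6.97 and 6.98 in femoral cells. Omental cells were higher than femoral cells in 7 of 8 fetuses, and the exception was restricted_9075, where both were nearly equal. The depot means were 7.15 ± 0.24, 6.95 ± 0.20 and 6.69 ± 0.24 (SD, n = 8), with the abdominal value between the others. Omental minus femoral was 0.46 ± 0.12 (SE; limma adjusted p 0.0157). Omental minus abdominal was 0.20 and abdominal minus femoral 0.26 ± 0.11 (adjusted p 1), so neither neighbour pair passed. A second RPL29 probe gave 0.43 ± 0.15 for omental minus femoral (adjusted p 0.078) and tracked the first over the 24 arrays (r = 0.921, a description).

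RPS6 read 14.16, 14.16, 13.98 and 14.07 in the omental and 14.27, 14.21, 14.29 and 14.32 in the femoral cells of the 4 controls. It read 14.09, 14.04, 14.03 and 14.10 in the omental and 14.20, 14.18, 14.20 and 14.16 in the femoral cells of the 4 restricted fetuses. Omental cells were lower in 8 of 8 fetuses, and the depot ranges met at 14.165. The depot means were 14.08 ± 0.064 in omental, 14.20 ± 0.095 in abdominal and 14.23 ± 0.056 in femoral cells. Omental minus femoral was -0.15 ± 0.045 (limma adjusted p 0.0442). A second RPS6 probe gave -0.14 ± 0.11 (adjusted p 0.523) and followed the first only weakly over the arrays (r = 0.28).

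Both calls depended on settings. With each fetus as a block, which removes the differences between fetuses, RPL29 passed and RPS6 did not (adjusted p 0.0937). RPL29 no longer passed without control_9017 (adjusted p 0.0507), without control_8011 (0.0664), in the 6 female fetuses alone (0.104) or with median scaling (0.0719). RPS6 failed without any 1 of the 8 fetuses, with adjusted p-values of 0.0618 to 0.149.

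The fetus block added 2 other members. RPL13, a large-subunit protein, was called for omental minus abdominal cells at 0.25 (adjusted p 0.0406 with the block, 1629 probes called against 782 without it). Its omental values of 6.78 to 7.68 exceeded the abdominal value of the same fetus in 7 of 8 fetuses, and control_9087 was lowest in all 3 depots. RPL39L is a paralog of RPL39 known from male germ cells and cancer cells in mice and humans. With the block it was called for abdominal minus femoral cells at 0.51 (limma adjusted p 0.019, 30 probes called against 13 without it). Without the block RPL39L differed by 0.51 ± 0.23 (SE, limma adjusted p 1). Its abdominal values, from 6.99 in control_9017 to 8.57 in restricted_2820, were higher than the femoral values, from 6.44 to 7.69, in 8 of 8 fetuses. The omental RPL39L values ran from 6.60 to 7.85 and overlapped both.

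Other members with small p-values did not pass. RPL36, a large-subunit protein, read 11.17 to 11.59 in omental and 11.47 to 11.84 in abdominal cells and was lower in omental cells in 8 of 8 fetuses, with a difference of -0.23 ± 0.08 (limma adjusted p 0.136). RPS24 and RPS20, both of the small subunit, differed by -0.17 ± 0.06 and -0.19 ± 0.08 in the same comparison (0.157 and 0.224). The stalk protein RPLP1 differed by -0.19 ± 0.08 between omental and femoral cells (0.169) and by -0.17 ± 0.08 between omental and abdominal cells (0.306), whereas RPLP2 differed by -0.012 ± 0.064 and -0.061 ± 0.053. Between abdominal and femoral cells RPL18 differed by -0.091 ± 0.046, lower in 8 of 8 fetuses.

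Most members lay slightly lower in omental cells. Omental minus abdominal was below 0 for 50 of 64 members with a median of -0.046, and omental minus femoral was below 0 for 47 with a median of -0.039, while the medians over all probes were 0.0015 and 0.0038. Above 0 in these comparisons were 50.5% and 51.3% of all probes, and in abdominal minus femoral 50.9%. The 2 comparisons share the omental arrays. In controls the group means of the array medians were -0.0062 in omental, 0.0066 in abdominal and 0.023 in femoral cells. In restricted fetuses they were -0.042, 0.038 and 0.011. Within a depot the array medians had an SD of 0.052 to 0.075. On the omental array of control_9017, 46 of 64 members stood above their mean. Abdominal minus femoral had a median of -0.0052 with 35 of 64 below 0. Large-subunit genes had medians of -0.049 and -0.039 in the 2 omental comparisons and small-subunit genes -0.025 and -0.040. A direction shared by 8 of 8 fetuses was seen for 1 member in omental against abdominal cells (1.56%, against 8.42% of probes), for 2 in omental against femoral cells, RPS16 and RPS6 (3.13%, against 11.1%), and for 2 in abdominal against femoral cells, RPL39L and RPL18 (3.13%, against 1.49%).

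**Figure D4:**
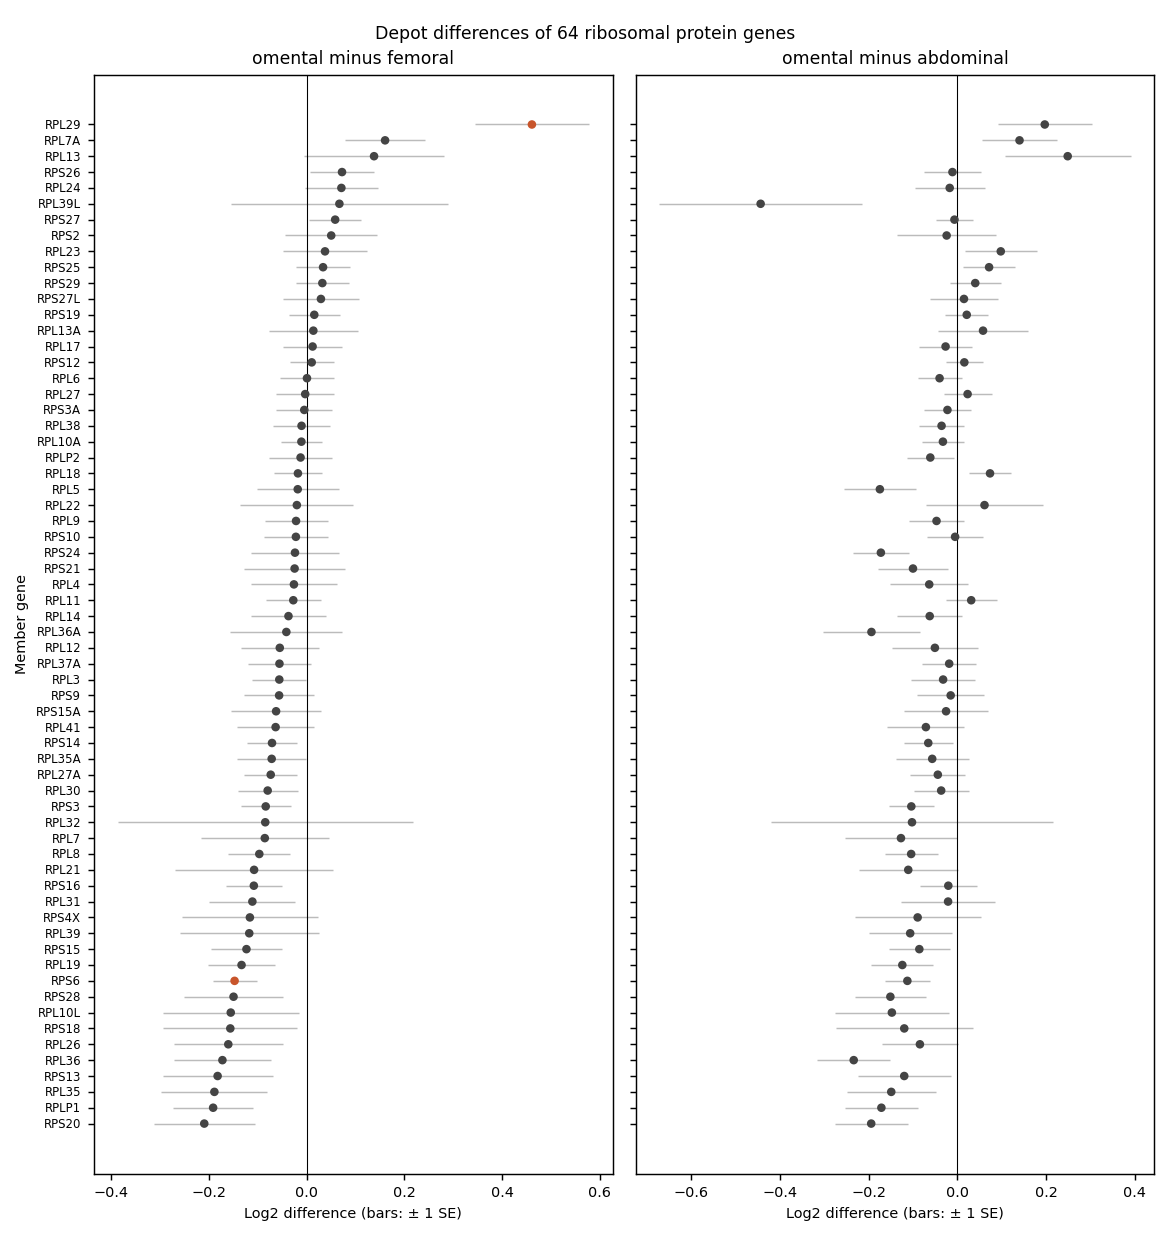
Log2 difference of each of the 64 members for omental minus femoral cells (left) and omental minus abdominal cells (right), in the order of the left panel, with bars of 1 standard error and orange points for members that passed the adjusted test. RPL29 at 0.46 and RPS6 at -0.15 are the only orange points, and most points in both panels lie just left of 0.

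Mesothelial markers moved with the depot beside these results. The mean log2 level over the 9 listed genes was 5.31 to 5.89 on the omental arrays, 4.70 to 5.25 on the abdominal and 4.53 to 4.88 on the femoral arrays. Of 5 tested members of that list, 4 were higher in omental than in femoral cells: WT1 by 1.89, KRT19 by 1.75, LRRN4 by 0.76 and also CALB2. UPK3B was the tested gene of the list not above 0 in omental minus femoral cells. Between omental and abdominal cells 1 of 5 passed, with 4 above 0. MSLN, KRT8, KRT18 and UPK1B of the same list were detected on no array. Of 10 tested stromal progenitor markers, LUM was higher (0.97), and CD44 (-1.62), PDGFRB (-0.72) and COL1A2 (-0.24) were lower in omental than in femoral cells. Of 6 endothelial markers TEK differed by -2.38 and of 4 muscle markers DES by 1.09, while 0 of 3 blood and 0 of 3 fat-cell markers passed. The part of these differences in the ribosomal protein values was not tested.

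Individual fetuses were compared last. Fetuses of the same diet were compared over their 3 depots, a comparison added after the values had been seen, and 17 of 64 members differed (26.6%; limma F-test, adjusted p under 0.05) against 23.2% of all probes. With 1 probe per gene the share of members is near the background, and without a background model it was 10 of 64 members against 3153 of 16933 probes. Counted over all 95 tested probes of the members it was 34 of 95, a larger share than the 3921 of 16933 over all probes. The median share of variance that lay between fetuses was 49.4% for members and 41.7% for all probes, and between depots 6.01% and 9.12%. Degrees of freedom alone would give 30.4% between fetuses and 8.7% between depots. Fetus, the culture grown from it, its RNA and the handling of its arrays cannot be told apart here.

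RPL32, a large-subunit protein, varied most among fetuses. Omental, abdominal and femoral cells read 10.84, 10.79 and 10.74 in restricted_2820, and 10.999, 10.94 and 11.12 in control_8011. In control_8009 they read 12.56, 12.63 and 12.66, and the remaining 5 fetuses lay between 11.55 and 12.52. Fetus means therefore spanned 1.60 log2 units within the control and 1.68 within the restricted diet (adjusted p 1.42e-09), with a median spread within a fetus of 0.094 (SD over 3 depots). A second tested RPL32 probe read 4.45 to 4.95 on the 24 arrays, near background, and did not follow the first (r = 0.0871).

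RPS18 fetus means spanned 0.44 log2 units within the control and 0.93 within the restricted diet, where restricted_9073 was lowest (adjusted p 9.17e-06). RPS4X, the X-linked small-subunit gene whose Y-linked copy is RPS4Y1, spanned 0.92 in controls and 0.39 in restricted fetuses (1.71e-05). It read 14.38, 14.32 and 14.38 in the omental, abdominal and femoral cells of control_9087 and 13.46, 13.41 and 13.44 in those of control_9017. The 3 depots of each of these fetuses lay close together, and the fetuses did not overlap.

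RPL13 spanned 0.78 in controls and 0.42 in restricted fetuses, with control_9087 lowest, at 6.78, 6.49 and 6.63. RPL22, an RNA-binding large-subunit protein known for its role in T-cell development in mice, spanned 0.68 in controls, with control_8011 lowest, and 0.56 in restricted fetuses. RPL12, next to the stalk base, spanned 0.33 in controls and 0.49 in restricted fetuses, with restricted_9085 highest, at 14.18, 14.47 and 14.38. The adjusted p-values of these 3 ran from 6.28e-05 to 0.00121. The other 11 that passed were RPL13A, RPL35, RPL23, RPL10L, RPS10, RPL39L, RPL14, RPL4, RPS15A, RPL5 and RPLP1, and the wider of their 2 within-diet spans ran from 0.26 to 1.03. RPS19, RPL11, RPS3, RPL3, RPS27, RPS27L, RPL39, RPLP2 and RPS6 did not pass. Of all 95 tested probes of the members 34 passed, against 23.2% of all probes, and several of these probes belong to 1 gene.

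**Figure D5:**
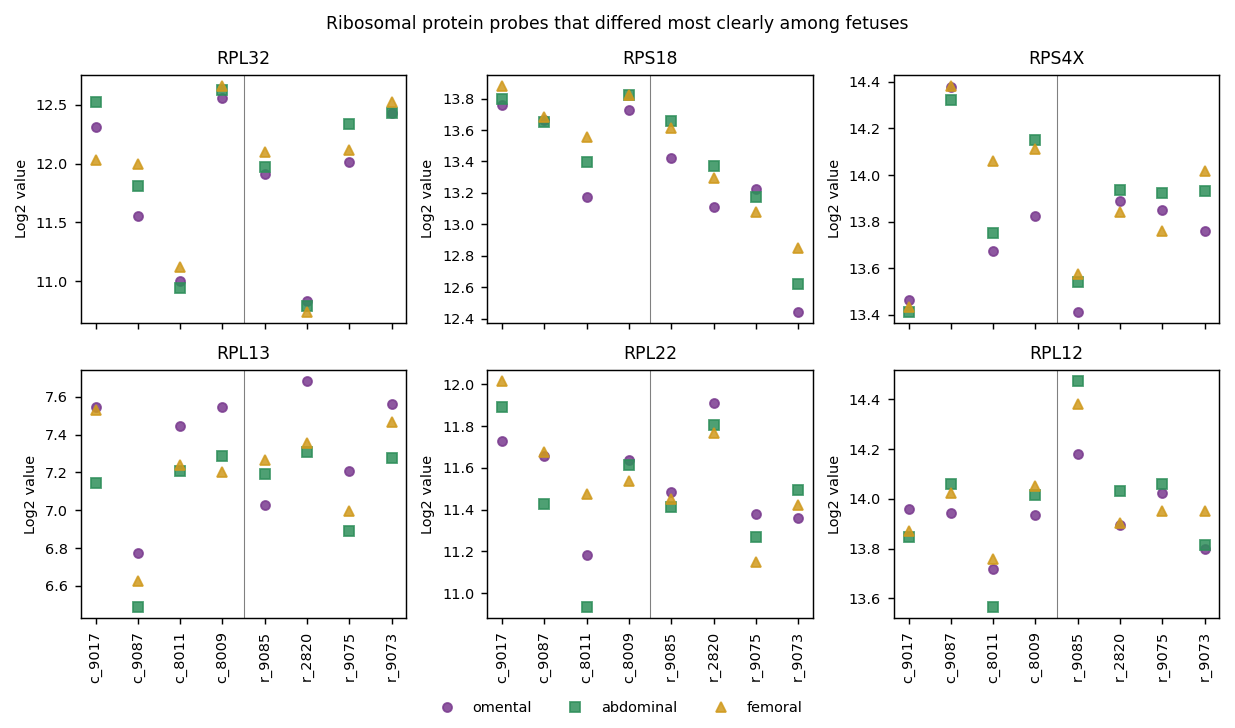
Log2 values of the 6 members with the smallest p for differences among fetuses of 1 diet, by fetus (c control, r restricted), with a marker for each depot. The 3 depots of many fetuses lie close together for RPL32 and RPS4X. They lie further apart for RPL32 in control_9017 and control_9087 and for RPS4X in control_8011 and control_8009. Restricted_2820 and control_8011 are lowest for RPL32, and both males, control_9017 and restricted_9085, are lowest for RPS4X.

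Sex was compared on the averages of 2 male and 6 female fetuses with diet in the model. No member passed (limma), against 0.136% of probes called, and at an unadjusted p under 0.05 there were 5 members (7.81%, against 8.25%), 4 higher in males (against 4.09%) and 1 lower (against 4.16%). The lower one was RPS4X, at 13.47 ± 0.05 in males and 13.97 ± 0.20 in females (SD), a difference of -0.50 ± 0.13 (SE; adjusted p 0.393). Its male averages of 13.44 and 13.51 lay below all 6 female averages, which ran from 13.83 to 14.36. The share of all probes that separate 2 males from 6 females was not counted, so this separation has no background beside it. A second RPS4X probe gave -0.41 ± 0.09 (0.30) and tracked the first (r = 0.844). RPS15, a small-subunit protein of the head, differed by 0.20 ± 0.07 (0.513) and RPL7 by 0.30 ± 0.11 (0.546). With 2 males, sex cannot be told apart from other properties of those fetuses. The Y-linked RPS4Y1, outside the set, differed by 7.33.

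Different probes of 1 gene did not always agree. For 24 members more than 1 probe was tested, giving 31 pairs with the chosen probe, and the correlation over the 24 arrays had a median of 0.406 with a range of -0.366 to 0.921. It was highest for RPL29 (0.921), RPS9 (0.86) and RPS4X (0.844) and lowest for RPS26 (-0.366). The arrays of a pair share fetus and depot, so these are descriptions.

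Genes that act around the ribosome were read from set lists. None of their members passed in any diet comparison. Of translation factors whose mRNAs carry the same terminal tract, 2 of 22 tested passed between omental and femoral cells: the helicase EIF4A2 was higher (0.37) and the poly(A)-binding PABPC1 lower (-0.22) in omental cells. EIF4A2 was also the 1 of 22 that passed between omental and abdominal cells, higher by 0.34. Of genes that control ribosome production through mTOR and MYC, 3 of 19 passed between omental and femoral cells, the RNA-binding LARP4 (0.43), the mTORC1 inhibitor TSC2 (-0.30) and the MYC partner MAX (-0.26). Each of these counts stands beside the 10.9% and 4.62% of all probes called.

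Of ribosome assembly factors, 1 of 29 passed between omental and femoral cells, the assembly factor NIP7 (-0.26), against 10.9% of all probes. With restriction, 6 of 29 genes of this list were above 0 in omental cells, 4 in abdominal cells, 14 in femoral cells and 5 on the averages. Of all probes, 47.7%, 48%, 49.2% and 48.1% were above 0, so the femoral share was near the background. This list was not read with median scaling, on which the medians of the ribosomal protein genes depended. The medians of the assembly list were -0.093 in omental, -0.14 in abdominal and -0.00017 in femoral cells and -0.062 on the averages, and 0 of 29 passed in each. Of mitochondrial ribosomal proteins, 1 of 69 passed between omental and femoral cells, MRPS25 (0.26), against 10.9% of all probes. The median over that list was 0.049, against -0.039 for the cytoplasmic set. None of 10 tested RNA polymerase I genes, 7 p53 targets of ribosome stress and 4 ribosomal paralogs outside the rule passed in a depot or diet comparison.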

How the data were processed

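Total RNA was labelled with biotin and read on single-channel Illumina bead arrays with human probes. Per the file headers, the deposited table holds, for every array, each probe's average signal intensity with its detection p-value. From the values, the intensities were background-subtracted and not normalised between arrays, since each array holds values below 0. The authors also deposited intensities in a series matrix that, from the values, were quantile-normalised. Software is not given in the sources used here.

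The neqc function of limma 3.58.1 (R 4.3.3), at an offset of 16, modelled background, equalised quantiles and took log2 values. Probes with a detection p-value under 0.05 on at least 4 arrays were tested with lmFit and eBayes, two-sided, with Benjamini-Hochberg adjustment over 16933 probes. Diet was fitted within a depot and on fetus averages, and fetuses by an F-test with depot as a term. Depots and interactions were fitted over 16 arrays with diet as a term, and without a fetus block unless a block is named. Plots used matplotlib 3.10.9. Gene symbols came from GEO's platform annotation, which can be old: 28098 probes had 1 symbol, 13 several and 20692 none.

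Fetus numbers pair the arrays, because 1 animal gave all depots. Deviations from group means of arrays of 1 fetus correlated at 0.28 to 0.673 (24 pairs), and of different fetuses at -0.468 to 0.248 (168 pairs). Replicates are separate fetuses. No chip or scan batch was given, so batches were not tested.

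The members and gene lists were chosen with earlier results of these data known, so no p was adjusted over a list alone. Named were members passing a test, the 3 with the smallest p per comparison, the widest and narrowest, and members of set role. The lists held translation factors with terminal-tract mRNAs, ribosome assembly, RNA polymerase I, mTOR and MYC control, p53 targets, mitochondrial ribosomal proteins, other paralogs and cell-type markers. Alternatives varied scaling, background, filter, probes, fetuses, sex and the fetus block. Scripts were tested on simulated data.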

Additional observations from a re-analysis of the deposited data

Results flagged for a closer look

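Among the 4 arrays of a depot and diet, 1 array stood apart from the other 3 in 14 of 162 sets of values (8.64%), by a gap past the 95% limit of Dixon's test. Chance gives about 1 in 20 for independent sets that were not picked by their values. Here members were picked by small p-values in these data and the sets share fetuses, so that rate is no fair reference. The sets were 26 named members and the array median of all members in each of 6 groups.

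In omental control cells, control_8011 was low for RPL12 (13.72), RPL22 (11.183, against at least 11.64) and RPS18 (13.176). Control_9087 was low for RPL13 (6.775) and RPL23 (11.779), a large-subunit protein that can bind MDM2. Control_8009 was high for RPL13A (9.64, against at most 9.36), and control_9017 had the highest array median (0.09225, against -0.033 or less).

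In femoral control cells, control_9017 was low for RPL39L (6.444, against at least 7.56). In omental restricted cells, restricted_9085 was low for RPL27, a large-subunit protein (14.247), and restricted_9075 was low for RPS26, of the mRNA exit (12.377).

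Restricted_9085, the restricted male, stood apart in the other sets. In abdominal cells it was low for RPS4X (13.539, against at least 13.92) and had the highest array median (0.155, against 0.0042 or less). In femoral cells it was high for RPL12 (14.383) and RPL27 (14.568).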

How the results depend on the processing

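Of 1278 values recomputed under other settings, 198 counts of members called stayed within 1.5 times the reported count and 21 did not. Many of the counts that stayed were 0 in both settings. Of the medians over members, 198 stayed within the mean SD of array medians (0.0665) and 5 moved, for omental diet and the omental interactions, with median scaling or in females alone. Of the values of named members 830 kept their direction and call, 22 lost the call, 2 gained it and 2 changed sign. No member passed for diet, the interaction or sex under any setting. The count for omental minus femoral cells, 2 as reported, was 0 with median scaling and 0 in female fetuses alone, and it was 1 without a background model, with the series matrix values, with probes detected on all 24 arrays, with the replicate block and with cell means for depot and diet (added after seeing the data). Leaving out 1 fetus gave 0 to 1, with 0 without control_9017 or control_8011. Such a fit has fewer arrays; for the other settings the cause was not tested. RPL29 passed under 15 of 19 alternatives (0.39 to 0.53) and RPS6 under 4 of 19 (-0.17 to -0.13). In 1 of these alternatives the abdominal array of restricted_9073 was left out. That array does not enter omental minus femoral cells, so both genes passed there as in the main fit. The replicate block gave 1 member for omental minus abdominal cells (RPL13) and 1 for abdominal minus femoral cells (RPL39L). It moved the counts of all probes there from 782 to 1629 and from 13 to 30. For omental minus femoral cells it moved that count from 1852 to 2645 and removed RPS6. The block changed no other call of a ribosomal protein gene reported here, and genes of the other lists were not examined with it. RPL39L in omental minus femoral cells, 0.067 and not called, was -0.098 without control_9017, -0.18 in female fetuses alone and 0.21 without control_8009. The count of members that differed among fetuses, 17, was 10 without a background model and 10 with the series matrix values. With all 95 probes it was 34, a count of probes and not of genes. It was 10 to 18 when 1 fetus was left out, with 10 without control_9087. Dim members such as RPL10L and RPS2 carry little signal over background, and 4 fetuses per diet left 8 members of 64 without an interval inside 0.5 log2 units on the averages.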
